A study of Mus musculus with 12 samples.

Results

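The genes described here encode, from nuclear DNA, the respiratory complexes II to IV and the ATP synthase (complex V) of the mitochondrion. They were chosen as a list of 30 gene symbols together with every symbol of the form Atp5 followed by letters or digits, which added 17 genes. This gave 47 members among the 24824 genes of the table, and the rule itself uses no measured value. There were 4 members in complex II, 10 in complex III with cytochrome c, 10 among the structural subunits of complex IV, 6 among the assembly factors of complex IV and 17 in the ATP synthase.

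The cells were AML12, an immortalized line of mouse hepatocytes labelled wild type, harvested after 24 h in 4 groups of 3 libraries of polyadenylated RNA. Group A received standard growth medium alone and was the control. Group B received 300 μM CuCl2 and 40 nM elesclomol, an ionophore that carries copper into cells (Cu/ES). Group C received the same Cu/ES plus 1000 μM taurocholic acid (TCA), a conjugated bile acid. Group D received 1000 μM TCA and no Cu/ES. No group received CuCl2 or elesclomol alone, so their effects cannot be told apart. The cells of all 4 groups were 1 line in 1 culture medium. Nothing in the sources used here says whether the 3 libraries of a group came from separate cultures, so p-values measure the spread between libraries, which may be technical.

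Complexes II, III and IV pass electrons from succinate and ubiquinol through cytochrome c to oxygen, and complexes III and IV pump protons as they do so. The ATP synthase lets the protons flow back through a ring of c subunits and makes ATP in its F1 head. Complex II is wholly nuclear encoded, whereas complexes III and IV and the ATP synthase also hold subunits made in the mitochondrion, so both genomes contribute to the same complexes. Cytochrome c oxidase (complex IV) needs copper and heme A at its active site, and a set of assembly factors delivers both. In liver cells these complexes supply most of the ATP.

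Levels are given in FPKM, that is, fragments counted per length of the gene and size of the library, so levels of different genes can be set side by side. Differences are given as log2 fold changes of FPKM + 1 with their standard error (SE), from a single limma model of all 12 libraries over the 10615 genes that averaged 1 FPKM or more. Adjustment of the p-values ran over all of these genes by the Benjamini-Hochberg method, and a gene was counted as changed at an adjusted p under 0.05. All 47 members passed the filter on low values. Library totals were 38298857 to 39108519 reads without treatment, 30773752 to 32002324 with Cu/ES, 29115011 to 34912748 with Cu/ES and TCA and 39444420 to 39782142 with TCA alone, and a member was covered by 36 to 59859 reads in a library. FPKM is a share of the library, and in these bulk samples fewer cells of a kind and less RNA per cell cannot be told apart. Group B also differed from group A over most genes, with a median log2 fold change of -1.10 over all genes tested, so the changes of the members under Cu/ES are given on the FPKM scale and beside this median. That median depended on level, since the 2838 genes that averaged 20 FPKM or more, a reference chosen after the data were seen and here called the more abundant genes, had one of -0.27. All 41 subunits and cytochrome c reached that level, and none of the 6 assembly factors did.

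Among the hepatocyte markers, Krt8 and Krt18 reached 401 and 317 FPKM, but Alb (albumin) was at 0 in 10 of the 12 libraries with a highest value of 0.0758 FPKM, and Hnf4a did not exceed 0.0304 FPKM. In a line labelled as hepatocytes, these defining markers were thus absent or near 0. The 9 of 12 listed hepatocyte markers in the table summed to 604 to 657 FPKM in group A and 257 to 309 with Cu/ES, to 187 to 227 with Cu/ES and TCA and to 708 to 726 with TCA alone. This sum was nearly all Krt8 and Krt18, which fell from means of 344 and 285 FPKM in group A to 183 and 81.9 in group B. Foxa2 (4.89 to 2.07) and Apoa2 (1.06 to 0.713) were also lower in group B. Afp went the other way, from 2.56 to 19.2, as did Apoa1, from 0.00863 to 1.86. Of the leukocyte markers, Ptprc did not exceed 0.0844 FPKM and Adgre1 was at 0 in 11 libraries, so that the list's sum of 72.5 to 102 FPKM in the untreated libraries, 24.5 to 28.9 with Cu/ES, 23.9 to 36.5 with Cu/ES and TCA and 25.5 to 37.03 with TCA alone was nearly all Cd68. The sum of the 2 endothelial markers was 0.882 to 1.06 without treatment, 6.42 to 10.2 with Cu/ES, 15.99 to 19.2 with Cu/ES and TCA and 0.814 to 1.2 with TCA alone. The 4 cholangiocyte markers, with Krt7 at 0 in 11 libraries, summed to 230 to 326, 111 to 140, 130 to 136 and 158 to 246 in groups A to D. Within this list Krt19 fell from a mean of 268 FPKM in group A to 77.3 in group B, and Epcam from 0.537 to 0.0715. Sox9 rose from 10.6 to 50.9. The stellate cell marker Vim was the most abundant of the other lists, and the summed FPKM of that list of 4 genes ran from 1999 to 2169 without treatment, from 296 to 352 with Cu/ES, from 154 to 195 with Cu/ES and TCA and from 1701 to 1777 with TCA alone. The part of such shifts in the results below was not tested.

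Promoters of respiratory genes are known for sites of the factors NRF1, GABP (of the ETS family) and YY1. Of the 47 members, 38 had a promoter in RefSeq (build GRCm38.p6, whereas the deposited values were made on GRCm39), taken as 250 bases before to 50 bases after the gene start. The letters searched on both strands were GCATGCG for the NRF1 core, CCGGAAG for the ETS site and AAGATGG for YY1. The NRF1 letters stood in 9 of the 38 promoters (23.7%) against 4.01% of all 27025 promoters and 7.83% of the 8504 promoters of genes tested here. The ETS letters stood in 17 (44.7%), against 9.93% of all promoters and 21.9% of those of genes tested, and the YY1 letters stood in 6 (15.8%), against 7.28% and 8.93%. A match describes the sequence and is not evidence that a factor was bound. Of the 38 promoters, 15 (39.5%) held none of the 3, against 65.9% of those of genes tested. The 250 bases before the start of 3 members are printed with the matched letters in capitals. They are a member of complex II, cytochrome c and the member with the largest fall with TCA. Sdhb had the smallest change of complex II under Cu/ES, and Sdha, which had the largest, held none of the letters. Whether the letters go with the changes was not tested. In Sdhb and Cycs the capitals mark the NRF1 core, beginning 54 and 61 bases before the start. In Cycs the letters match both strands and therefore cover 8 bases. In Uqcr11 they mark the ETS letters, beginning 66 bases before the start. Sdhb also held the ETS letters and Uqcr11 the NRF1 letters, in matches not wholly within the 250 bases printed.
Sdhb (chr4:140961021-140961270, plus strand): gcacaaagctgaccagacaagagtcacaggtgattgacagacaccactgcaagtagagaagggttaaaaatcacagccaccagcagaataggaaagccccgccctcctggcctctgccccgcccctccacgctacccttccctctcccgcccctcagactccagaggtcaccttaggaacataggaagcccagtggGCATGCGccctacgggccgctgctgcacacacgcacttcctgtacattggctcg
Cycs (chr6:50566570-50566819, minus strand): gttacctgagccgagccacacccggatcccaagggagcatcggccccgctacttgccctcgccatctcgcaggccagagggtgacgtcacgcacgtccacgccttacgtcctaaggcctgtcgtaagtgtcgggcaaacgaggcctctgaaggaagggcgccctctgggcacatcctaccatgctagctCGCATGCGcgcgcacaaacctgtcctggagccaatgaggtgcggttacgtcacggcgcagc
Uqcr11 (chr10:80406822-80407071, minus strand): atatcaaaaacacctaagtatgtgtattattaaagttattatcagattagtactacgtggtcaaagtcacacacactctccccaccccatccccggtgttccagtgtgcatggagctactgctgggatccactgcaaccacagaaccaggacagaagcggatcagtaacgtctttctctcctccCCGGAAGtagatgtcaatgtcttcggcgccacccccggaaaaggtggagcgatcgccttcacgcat

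The comparison of group B with group A asks what Cu/ES did to these genes. The answer differed between the complexes. On the FPKM scale complex II and the assembly factors of complex IV fell, complex III was divided, the structural subunits of complex IV were mostly higher, and the ATP synthase split into rising and falling subunits. In all, 16 of the 47 members were higher in group B and 25 were lower, while 6 did not pass the test. Of all genes tested, 20.1% were higher and 72% were lower in this comparison. The median log2 fold change of the members was -0.25, close to the -0.27 of the more abundant genes, of which 37.8% were higher and 52.3% were lower. Of the 47 members, 33 lay above the median of all genes tested and 24 above that of the more abundant genes. Past an absolute log2 fold change of 1 as well, 3 members were higher (Cycs, Atp5l and Atp5h) and 14 were lower, where the shares of all genes were 10.1% and 53%. The 3 libraries of each group did not overlap for 17 members that were higher and 26 that were lower in group B, against 20.5% and 72.4% of all genes. These calls depended on the scaling. Scaled by the median ratio of all genes, which puts their median at 0.01, 33 members were higher and 10 were lower, scaled as TPM 10 were higher and 30 lower, and after quantile normalization 9 were higher and 23 lower. By set, median-ratio scaling gave 1 higher and 2 lower in complex II, 7 and 1 in complex III, 10 and 0 among the subunits of complex IV, 0 and 6 among its assembly factors, and 15 and 1 in the ATP synthase. The shares of all genes given above hold for the FPKM scale only. Shares under the other scalings are not given here, so these counts cannot be set against other genes. Where the members stood beside other genes depended on which genes were taken. Their median lay 0.85 above that of all genes tested, 0.02 above that of the more abundant genes and 0.24 below that of all genes without a filter on low values. Only 10615 of the 24824 genes averaged 1 FPKM or more, and at low levels the added constant of 1 holds changes near 0. The median without a filter is therefore held near 0 by low genes and is a weak reference. After quantile normalization it lay 0.15 below that of all genes tested.

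**Figure D1:**
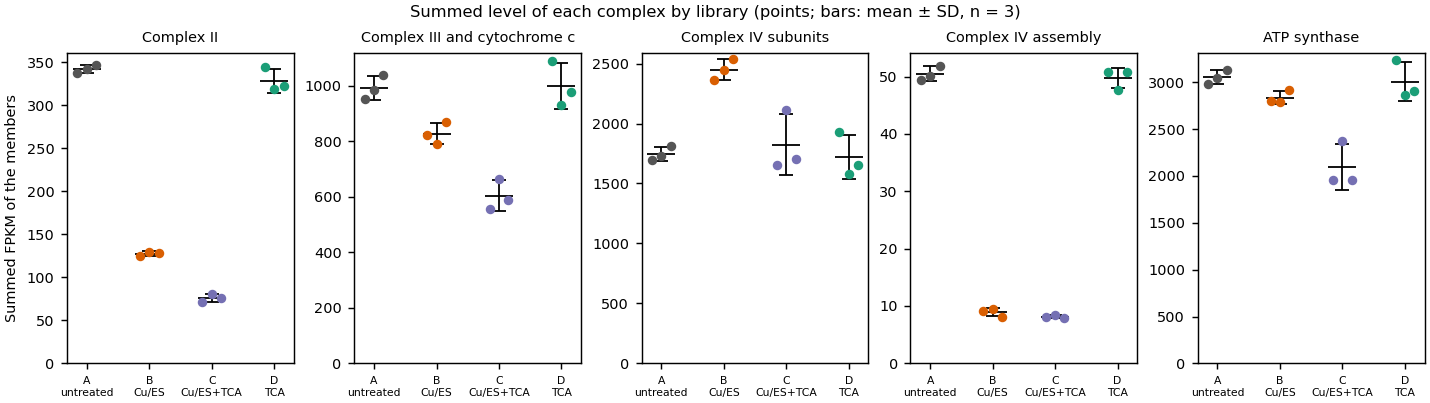
Summed FPKM of the members of each complex (vertical axis, from 0, a scale of its own for each panel) in the 4 groups. Points are libraries and bars are mean ± SD of 3 libraries. Complex II fell from 342 in group A to 128 in group B and 76.2 in group C, whereas the complex IV subunits rose from 1746 in group A to 2449 in group B and stood at 1822 in group C.

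The summed FPKM of complex II was 342 ± 4.62 without treatment, 128 ± 2.88 with Cu/ES, 76.2 ± 4.49 with Cu/ES and TCA and 329 ± 14.3 with TCA alone (mean ± SD, n = 3). The structural subunits of complex IV took the opposite course under Cu/ES, with 1746 ± 58.3 in group A and 2449 ± 86.3 in group B. Their sum was 1822 ± 255 in group C and 1719 ± 183 in group D. The assembly factors of complex IV, which are far less abundant than the subunits, summed to 50.5 ± 1.29, 8.92 ± 0.677, 8.14 ± 0.217 and 49.8 ± 1.8 in groups A to D. Complex III with cytochrome c stood at 991 ± 43.5, 827 ± 38.9, 604 ± 55.6 and 999 ± 82.6 in the same order. The ATP synthase, the most abundant set, stood at 3054 ± 74.2, 2837 ± 70.7, 2097 ± 243 and 3006 ± 206. In each of these sums the libraries of group C lay below those of group B without overlap except for the assembly factors, where they overlapped. Library C2 gave the highest sum of group C in all 5 sums.

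Complex II fell with Cu/ES and fell further when TCA was added. All 4 subunits fell with Cu/ES on the FPKM scale, where median-ratio scaling gave 2 lower and 1 higher, and all 4 fell again with TCA added. Their median log2 fold change was -1.57 in the first comparison, which is 0.47 below the median of all genes tested and 1.299 below that of the more abundant genes, and -0.74 in the second.

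Sdha encodes the flavoprotein that oxidises succinate. Sdha measured 83.01, 82.9 and 87.9 FPKM in the untreated libraries, 23.6, 22.4 and 21.6 with Cu/ES, 14.2, 13.9 and 14.4 with Cu/ES and TCA, and 82.5, 77.9 and 75.3 with TCA alone. Each treatment group lay below the group it is compared with, with no overlap. The log2 fold change was -1.86 ± 0.06 (SE, adjusted p = 1.24e-12) for group B vs. A and -0.64 ± 0.06 (SE, adjusted p = 4.15e-06) for group C vs. B.

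Sdhb encodes the iron-sulfur subunit that passes electrons on, and its promoter is the first one printed above. Sdhb measured 70.3, 69.3 and 70.1 FPKM in the untreated libraries, 41.5, 44.1 and 43.4 with Cu/ES, 20.9, 27.4 and 22.4 with Cu/ES and TCA, and 84.3, 74.9 and 80.05 with TCA alone. It had the smallest change of complex II under Cu/ES, at -0.69 ± 0.08 (SE, adjusted p = 2.22e-06), and the difference of group C vs. B was of similar size at -0.85 ± 0.08 (SE, adjusted p = 6.13e-06). With TCA alone its libraries lay above those of group A, but the difference did not pass the test (0.19 ± 0.08 (SE, adjusted p = 0.135)).

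Sdhc and Sdhd encode the membrane anchors that bind ubiquinone. Sdhc measured 96.6, 97.5 and 103 FPKM in the untreated libraries, 26.7, 29.4 and 28.8 with Cu/ES, 11.4, 15.3 and 12.1 with Cu/ES and TCA, and 96.3, 88.04 and 88.6 with TCA alone. Sdhd measured 87.9, 92.6 and 86.1 FPKM in the untreated libraries, 32.5, 33.8 and 34.97 with Cu/ES, 25.3, 24.1 and 27.3 with Cu/ES and TCA, and 81.8, 77.8 and 78.2 with TCA alone. In both genes the libraries of group B lay below group A, and those of group C lay below group B. For Sdhc the log2 fold change was -1.77 ± 0.09 (SE, adjusted p = 1.15e-10) for group B vs. A and -1.08 ± 0.09 (SE, adjusted p = 1.95e-06) for group C vs. B, the only member of complex II past a log2 fold change of 1 in the second comparison. For Sdhd the values were -1.37 ± 0.06 (SE, adjusted p = 3.23e-11) and -0.39 ± 0.06 (SE, adjusted p = 0.000232). Under median-ratio scaling Sdhb was higher in group B (log2 fold change 0.63) and Sdhd did not pass the test (-0.05, adjusted p = 0.407), so on that scale only Sdha and Sdhc were called lower in group B.

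Complex III was divided. Cytochrome c (Cycs) and Uqcrh, which encodes the hinge subunit, rose in group B, and 7 members fell. The log2 fold changes ran from -3.03 to 1.76, the widest range of the 5 sets of members. The median was -0.65, which is 0.45 above the median of all genes tested but 0.37 below that of the more abundant genes. It was also 0.63 below that of all genes without a filter on low values, a reference held near 0 by low genes. After quantile normalization it lay 0.62 below that of all genes tested. Both rises passed the test under TPM, median-ratio and quantile scaling as well.

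Uqcrc2 encodes a core subunit of complex III. Uqcrc2 measured 83.6, 85.3 and 84.1 FPKM in the untreated libraries, 10.5, 9.71 and 8.34 with Cu/ES, 8.40, 7.47 and 8.06 with Cu/ES and TCA, and 80.1, 74.9 and 75.6 with TCA alone. Group B retained a mean ratio to group A of 0.113, the lowest of complex III, with a log2 fold change of -3.03 ± 0.08 (SE, adjusted p = 1.84e-13). Its partner core subunit Uqcrc1 had a log2 fold change of -0.93, or 0.39 under median-ratio scaling. The libraries of groups B and C overlapped, and the difference of -0.22 ± 0.08 (SE, adjusted p = 0.0302) lost its call when library B1, B2, C2 or C3 was left out, with values between -0.31 and -0.16. Uqcrc2 shares a stretch of 504 exon bases, the longest between them, with Pdzd9 on the opposite strand in the GENCODE vM21 annotation. Whether the counting used strand is not given in the sources used here.

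Cycs encodes cytochrome c itself, the soluble carrier between complexes III and IV. Cycs measured 17.7, 17.7 and 16.1 FPKM in the untreated libraries, 58.6, 60.4 and 62.8 with Cu/ES, 29.4, 36.6 and 31.7 with Cu/ES and TCA, and 25.1, 21.6 and 23.9 with TCA alone. Every library of group B stood above group A, those of group C stood between them, and those of group D stood slightly above group A. The log2 fold change was 1.76 ± 0.08 (SE, adjusted p = 5.23e-11) for group B vs. A, -0.88 ± 0.08 (SE, adjusted p = 4.15e-06) for group C vs. B and 0.43 ± 0.08 (SE, adjusted p = 0.00328) for group D vs. A. Cyc1, which encodes the membrane-bound cytochrome c1 to which cytochrome c docks, fell by 1.25 on the log2 scale in group B but stood at 0.07 (adjusted p = 0.502) under median-ratio scaling. Cycs has 2 pseudogenes named for it in GENCODE vM21, neither of which is in the table, so reads shared with them are uncertain.

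Uqcrfs1 encodes the Rieske iron-sulfur protein. Uqcrfs1 measured 74.2, 76.4 and 77.9 FPKM in the untreated libraries, 31.9, 29.7 and 35.1 with Cu/ES, 30.2, 34.4 and 32.1 with Cu/ES and TCA, and 75.9, 75.4 and 76.7 with TCA alone. It was lower in group B at -1.22 ± 0.07 (SE, adjusted p = 3.71e-10), or 0.10 (adjusted p = 0.267) under median-ratio scaling, and groups C and B overlapped (0.00 ± 0.07 (SE, adjusted p = 0.986)). Uqcr11, a small subunit whose promoter is printed above, behaved otherwise. Uqcr11 measured 85.3, 98.7 and 97.2 FPKM in the untreated libraries, 53.9, 47.2 and 56.5 with Cu/ES, 20.95, 23.1 and 24.4 with Cu/ES and TCA, and 99.9, 85.5 and 85.4 with TCA alone. Its groups did not overlap at either step, with a log2 fold change of -0.82 ± 0.09 (SE, adjusted p = 6.61e-07) under Cu/ES (0.50 under median-ratio scaling) and -1.17 ± 0.09 (SE, adjusted p = 1.16e-06) with TCA added, the largest fall of any member in group C vs. B.

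The structural subunits of complex IV were higher under Cu/ES in 8 of 10 cases, with Cox7b and Cox7c lower. None of the 10 passed a log2 fold change of 1. Their median was 0.53, which is 1.63 above the median of all genes tested and 0.80 above that of the more abundant genes. All 10 lay above the first median and 9 above the second. Ratios of group means ran from 0.726 to 1.74. After quantile normalization the median was 0.06, 0.17 above that of all genes, and 1 subunit was higher and 1 was lower.

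Cox4i1 encodes the ubiquitous form of subunit 4, which regulates the enzyme. Cox4i1 measured 299, 299 and 323 FPKM in the untreated libraries, 512, 533 and 562 with Cu/ES, 411, 486 and 402 with Cu/ES and TCA, and 331, 279 and 294 with TCA alone. Groups A and B did not overlap, at 0.80 ± 0.08 (SE, adjusted p = 3.23e-07), and group C lay between them, at -0.31 ± 0.08 (SE, adjusted p = 0.00783) against group B. This second call was lost under median-ratio scaling (-0.25, adjusted p = 0.0584), and the first under quantile normalization (0.12, adjusted p = 0.0842).

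Cox7a2 encodes the liver form of subunit 7a. Cox7a2 measured 89.3, 105 and 93.8 FPKM in the untreated libraries, 119, 125 and 119 with Cu/ES, 62.5, 86.99 and 65.5 with Cu/ES and TCA, and 113, 98.1 and 86.1 with TCA alone. Group B stood above group A by 0.33 ± 0.12 (SE, adjusted p = 0.0156). This call was lost without library A1 (0.28, adjusted p = 0.0608), and the value was -0.03 under TPM. Group C fell below both, with -0.76 ± 0.12 (SE, adjusted p = 0.000175) against group B, the lowest value among the complex IV subunits.

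Cox7c encodes another small subunit. Cox7c measured 206, 211 and 222 FPKM in the untreated libraries, 146, 147 and 171 with Cu/ES, 109, 147 and 116 with Cu/ES and TCA, and 229, 198 and 201 with TCA alone. It was lower in group B, at -0.46 ± 0.10 (SE, adjusted p = 0.000668), the lowest of the complex IV subunits, and turned to 0.87 under median-ratio scaling. In group C it differed from group B by -0.33 ± 0.10 (SE, adjusted p = 0.02), with overlapping libraries, a call that was lost without B3, C1 or C3 (values between -0.45 and -0.24 over all libraries left out).

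The 6 assembly factors of complex IV all fell under Cu/ES, each past a log2 fold change of -1, with a median of -1.84. Of all genes tested, 72% were lower and 53% were lower past that threshold. The median of the factors lay 0.74 below the -1.10 of all genes tested. That reference includes the more abundant genes, whose median was -0.27 and among which none of the factors stood. No median for genes at the level of the factors is given here. The factors are also of low level, with mean FPKM between 4.84 and 16.4 in group A and between 0.473 and 3.22 in group B. They rested on as few as 36 reads in a library of group B. At these levels the added constant of 1 compresses a fold change, and with a constant of 0.1 the median was -2.16. The ratios of the group means ran from 0.0576 to 0.257. After quantile normalization 3 of the 6 were lower.

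Cox10 and Cox15 act one after the other in making heme A, the first as heme O synthase. Cox10 measured 5.18, 5.08 and 4.53 FPKM in the untreated libraries, 1.28, 1.17 and 1.36 with Cu/ES, 1.20, 0.951 and 1.44 with Cu/ES and TCA, and 8.02, 7.38 and 8.14 with TCA alone. Cox15 measured 8.29, 8.05 and 8.33 FPKM in the untreated libraries, 0.546, 0.488 and 0.386 with Cu/ES, 0.795, 0.758 and 0.665 with Cu/ES and TCA, and 6.79, 6.80 and 7.26 with TCA alone. Both fell in group B, at -1.39 ± 0.09 (SE, adjusted p = 2.41e-09) for Cox10 and -2.65 ± 0.08 (SE, adjusted p = 4.84e-13) for Cox15, with no overlap between the groups, though Cox10 stood at 0.00 after quantile normalization. In group C Cox15 was slightly higher than in group B, at 0.24 ± 0.08 (SE, adjusted p = 0.0206), the only member to be called higher in that comparison, and the call was lost without B3 or C1 (0.20 and 0.22, adjusted p = 0.0811 and 0.0665). Cox15 shares a stretch of 444 exon bases, the longest between them, with Entpd7 on the opposite strand.

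Cox20 encodes a chaperone of the mitochondrially made subunit COX2. Cox20 measured 8.77, 7.79 and 9.25 FPKM in the untreated libraries, 2.61, 2.14 and 1.65 with Cu/ES, 1.10, 1.71 and 1.43 with Cu/ES and TCA, and 7.91, 6.31 and 6.07 with TCA alone. Its fall under Cu/ES was -1.63 ± 0.13 (SE, adjusted p = 2.04e-08), or -0.25 with an adjusted p of 0.11 after quantile normalization. The groups C and B overlapped, and the difference of -0.37 ± 0.13 (SE, adjusted p = 0.0344) was lost without B1, B2, C1 or C3 (values between -0.49 and -0.26). The other 3 factors deliver copper to the enzyme and are named here after their values were seen. In group B the log2 fold change was -2.35 for Cox11, -2.06 for Cox19 and -1.43 for Sco1, all past the test, though Sco1 stood at -0.04 (adjusted p = 0.717) after quantile normalization. None of the 3 passed the test for group C vs. B (adjusted p = 0.543, 0.132 and 0.125). Cox11 shares a stretch of 562 exon bases, the longest between them, with Tom1l1 on the opposite strand.

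Among the 17 ATP synthase genes 6 were higher, 6 were lower and 5 did not pass the test under Cu/ES. The median was -0.08, which is 1.02 above the median of all genes tested but only 0.20 above that of the more abundant genes. It was 0.06 below that of all genes without a filter on low values, a reference held near 0 by low genes. After quantile normalization it lay 0.02 below that of all genes tested. The 5 genes of the F1 head, which carries the catalytic sites, were divided. Atp5a1, Atp5b and Atp5c1 fell (subunits alpha, beta and gamma), with log2 fold changes of -1.35, -0.41 and -1.96, while Atp5d and Atp5e (delta and epsilon) rose by 0.29 and 0.24. These directions were not kept by all scalings, with -0.01 for Atp5a1 and 0.93 for Atp5b under median-ratio scaling and -0.07 for Atp5d and -0.13 for Atp5e under TPM. Of the 9 genes of the stalks and the membrane part outside the c ring, 4 were higher (Atp5l, Atp5h, Atp5md and Atp5mpl) and Atp5pb was lower.

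Atp5c1 encodes the gamma subunit, the turning shaft inside the F1 head. Atp5c1 measured 128, 126 and 133 FPKM in the untreated libraries, 33.2, 30.8 and 33.00 with Cu/ES, 22.8, 25.7 and 21.6 with Cu/ES and TCA, and 122, 113 and 111 with TCA alone. The groups A, B and C followed in falling order without overlap, with -1.96 ± 0.07 (SE, adjusted p = 2.99e-12) for group B vs. A and -0.45 ± 0.07 (SE, adjusted p = 0.000181) for group C vs. B. Atp5l encodes subunit g of the membrane part. Atp5l measured 100.5, 103 and 111 FPKM in the untreated libraries, 275, 269 and 283 with Cu/ES, 214, 282 and 217 with Cu/ES and TCA, and 119, 103 and 96.6 with TCA alone. Group B was above group A by 1.39 ± 0.10 (SE, adjusted p = 6.16e-09). Library C2 lay within group B while C1 and C3 lay below it, and the difference of -0.22 ± 0.10 (SE, adjusted p = 0.0921) passed the test only without C2 (-0.35, adjusted p = 0.00245). Both genes have pseudogenes named for them in GENCODE vM21 that are not in the table.

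Atp5pb encodes subunit b of the outer stalk. Atp5pb measured 261, 267 and 264 FPKM in the untreated libraries, 164, 171 and 172 with Cu/ES, 160.4, 198 and 168 with Cu/ES and TCA, and 252, 236 and 245 with TCA alone. It was lower in group B at -0.64 ± 0.07 (SE, adjusted p = 8.18e-07), or 0.70 under median-ratio scaling, and groups B and C overlapped (0.04 ± 0.07 (SE, adjusted p = 0.651)).

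Subunit c, the ring that turns as protons pass, is encoded by 3 genes whose mature proteins are alike. Atp5g1 measured 59.97, 60.5 and 67.7 FPKM in the untreated libraries, 65.3, 51.6 and 62.1 with Cu/ES, 25.9, 29.96 and 29.7 with Cu/ES and TCA, and 85.6, 72.4 and 78.4 with TCA alone. Atp5g2 measured 307, 324 and 342 FPKM in the untreated libraries, 247, 246 and 258 with Cu/ES, 139, 153 and 138 with Cu/ES and TCA, and 292, 257 and 272 with TCA alone. Atp5g3 measured 165, 187 and 176 FPKM in the untreated libraries, 128, 119.6 and 135 with Cu/ES, 69.97, 82.9 and 68.6 with Cu/ES and TCA, and 212, 189 and 189 with TCA alone. For Atp5g2 and Atp5g3 group B lay below group A and group C below group B, whereas for Atp5g1 groups A and B overlapped and group C lay below both. Under Cu/ES the log2 fold changes were -0.08 ± 0.10 (SE, adjusted p = 0.455) for Atp5g1, -0.37 ± 0.07 (SE, adjusted p = 0.000106) for Atp5g2 and -0.46 ± 0.08 (SE, adjusted p = 0.000103) for Atp5g3. Under median-ratio scaling all 3 were higher in group B, at 1.24, 0.97 and 0.87. With TCA added to Cu/ES all 3 fell, with log2 fold changes of -1.03, -0.80 and -0.78. The sum of the 3 genes was 563 ± 28.0 FPKM without treatment, 437 ± 19.2 with Cu/ES, 246 ± 17.4 with Cu/ES and TCA and 549 ± 36.4 with TCA alone (mean ± SD, n = 3).

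**Figure D2:**
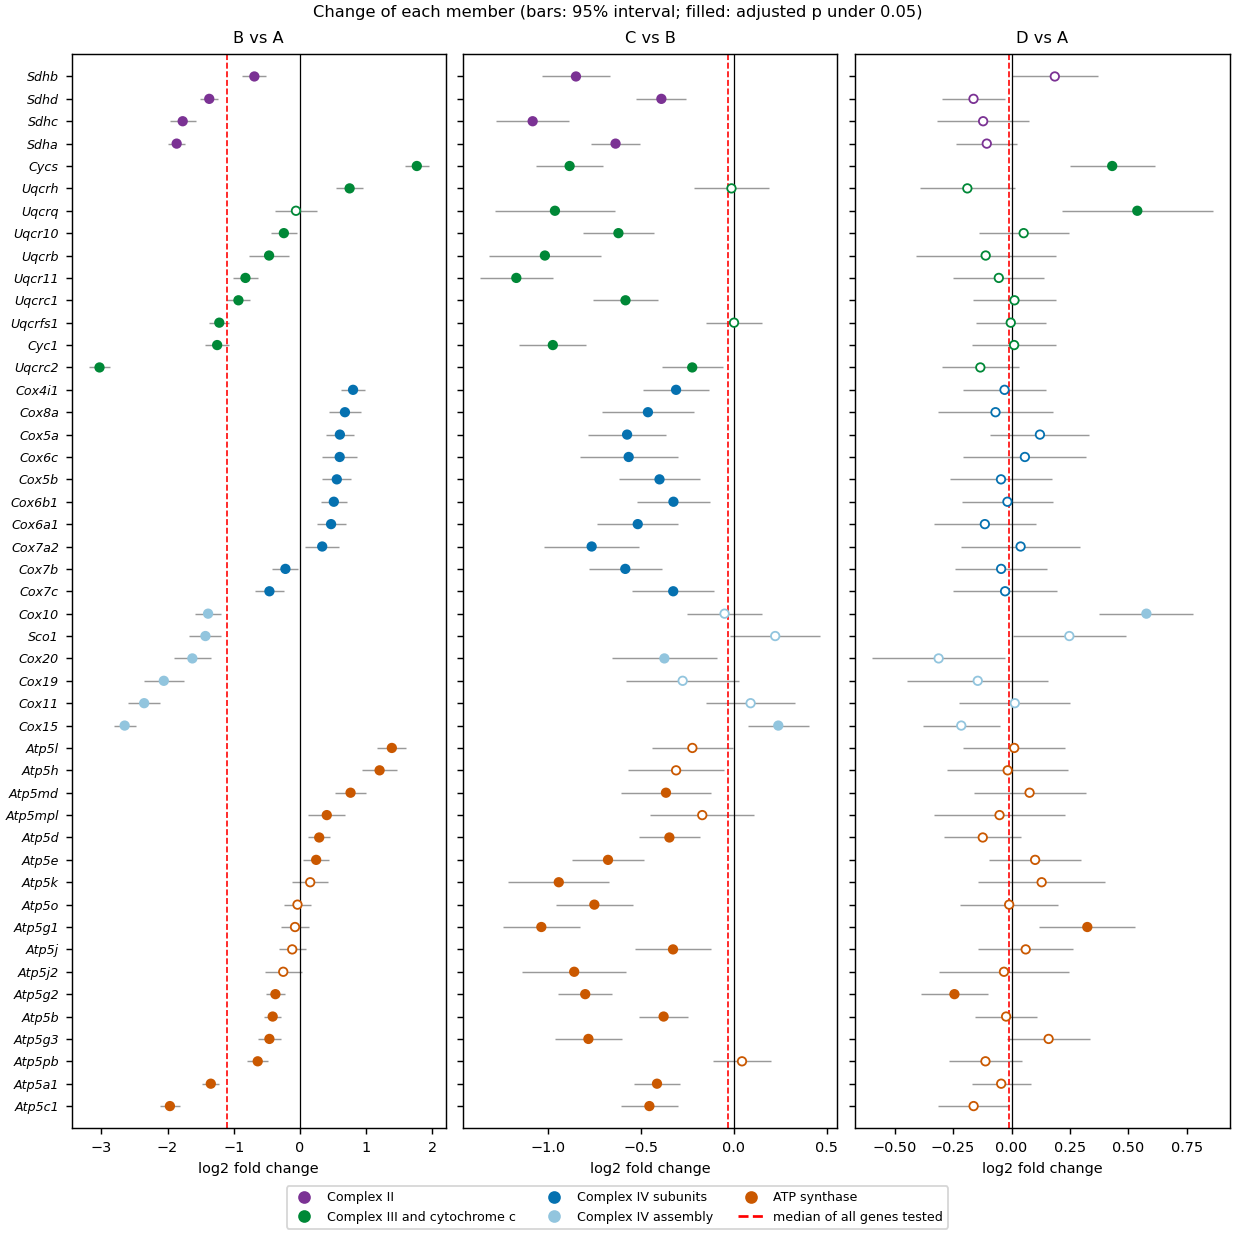
Log2 fold change (horizontal axis, a range of its own for each panel) of each of the 47 members (vertical axis) in the panels for Cu/ES (B vs. A), TCA added to Cu/ES (C vs. B) and TCA alone (D vs. A), with 95% intervals. Filled points passed an adjusted p of 0.05 (limma) and the dashed red line is the median of all genes tested, at -1.10, -0.03 and -0.01. Members are spread to both sides of 0 in the first panel, and 42 of 47 lie below 0 in the second.

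The comparison of group C with group B asks what TCA added to Cu/ES. Here the subunits moved one way. Of the 47 members, 36 were lower in group C, 1 was higher and 10 did not pass the test, whereas 23.6% of all genes tested were lower and 20.4% were higher. The median of the members was -0.45, that of all genes was -0.03 and that of the more abundant genes was -0.08, of which 34.8% were lower and 23.5% higher. Past an absolute log2 fold change of 1 as well, 4 members were lower (Sdhc, Uqcr11, Uqcrb and Atp5g1) and 0 were higher, against 1.16% and 1.13% of all genes. The libraries of the 2 groups did not overlap for 32 members that were lower and 1 that was higher, against 27.2% and 22% of all genes. Among the 41 subunits and cytochrome c, without the assembly factors, 35 were lower and 6 did not pass (Uqcrfs1, Uqcrh, Atp5h, Atp5l, Atp5mpl and Atp5pb).

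The fall was shared by all 4 members of complex II, 8 of 10 of complex III, 10 of 10 subunits of complex IV and 13 of 17 of the ATP synthase, with medians of -0.74, -0.75, -0.49 and -0.41. The assembly factors of complex IV had a median of 0.02, with 1 higher, 1 lower and 4 not passed. Within the ATP synthase all 5 genes of the F1 head and all 3 genes of subunit c fell, and 5 of the 9 genes of the stalks and membrane part did. Library C2 stood highest within group C for 37 of the 47 members, where it stood highest for 32.7% of all genes. Without C2, 38 members were lower in group C and the median of the members was -0.52. With TPM or quantile scaling, or with limma-voom on the recovered reads, 35 members were lower, and with median-ratio scaling 30 were.

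**Figure D3:**
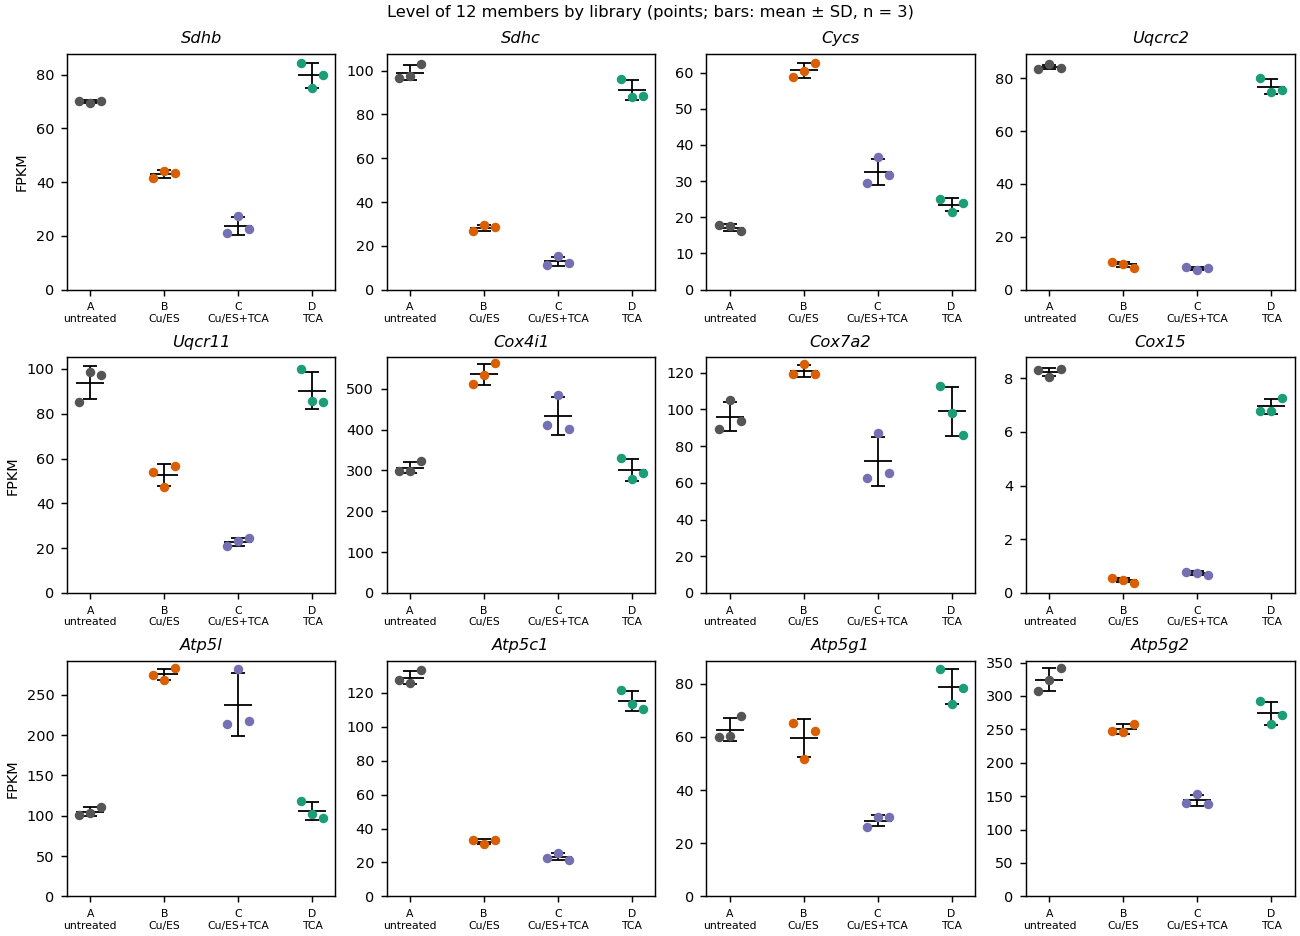
FPKM (vertical axis, from 0, a scale of its own for each panel) of 12 members in each library, with mean ± SD of the 3 libraries of a group. Sdhb, Sdhc and Uqcr11 step down from group A to B to C, Cycs and Atp5l stand highest in group B, and Uqcrc2 and Cox15 stay low in both groups with Cu/ES.

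Short genes were lower in group C as a whole, and the members are mostly short, with a median gene length of 1001 bases (320 to 4798). Among all genes tested that averaged 20 FPKM or more, the median log2 fold change of group C vs. B was -0.32 for the 326 genes under 1000 bases, -0.17 for the 727 genes from 1000 to 2000 bases, -0.03 for the 1037 genes from 2000 to 4000 bases and 0.08 for the 746 longer genes. The members stood lower in the first 3 of these classes, at -0.52 (n = 23), -0.45 (n = 15) and -0.41 (n = 7), while the 2 members above 4000 bases, both assembly factors, stood at 0.23. For group B vs. A the members under 1000 bases had a median of 0.33 and those from 1000 to 2000 bases one of -0.93, against -0.09 and -0.29 for all genes of that level. Over the 47 members the rank correlation of the change in group B vs. A was -0.47 with length and 0.52 with mean FPKM. Over the 41 without assembly factors these were -0.35 and 0.31, and over all genes tested they were -0.07 and 0.21. The genes share libraries and are not independent. The parts of gene length and level in the results were not tested.

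**Figure D4:**
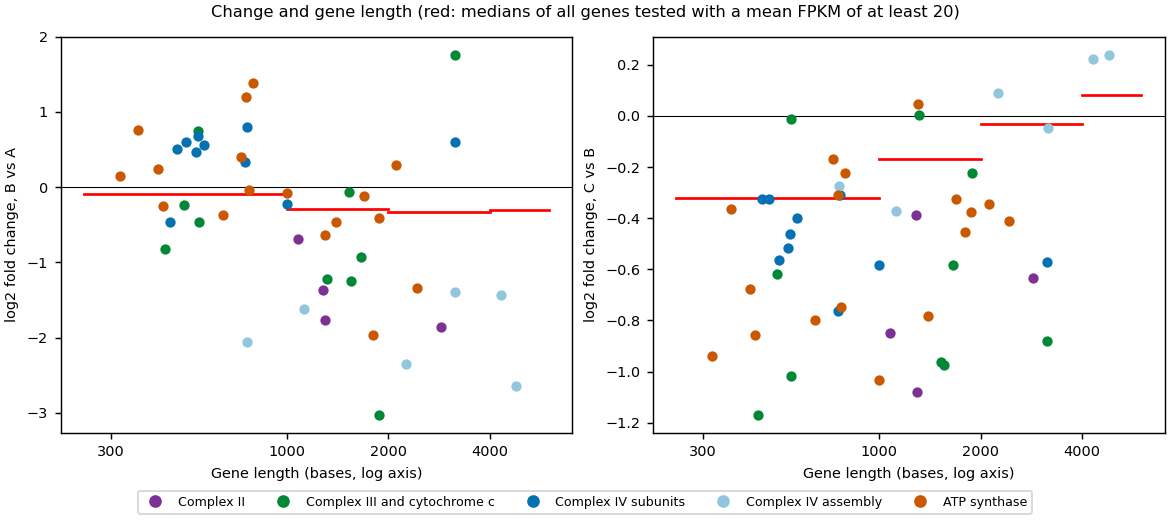
Log2 fold change for group B vs. A (left) and C vs. B (right) against gene length in bases (log axis) for the 47 members, coloured by complex. Red lines are medians of all genes tested that averaged 20 FPKM or more in 4 length classes. In the right panel the red lines rise from -0.32 to 0.08 with length, and most members lie below them.

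The comparison of group D with group A shows TCA without Cu/ES. Most members did not differ detectably. Of 47 members, 42 did not pass the test, 4 were higher (Uqcrq, Cycs, Cox10 and Atp5g1) and Atp5g2 was lower, where 10.5% of all genes were higher and 11.5% were lower, and 18.6% and 6.73% of the more abundant genes. The median of the members was -0.02. No member also passed an absolute log2 fold change of 1, which 0.0659% of all genes did as higher and 0.151% as lower. The groups did not overlap for 7 members that were higher and 8 that were lower, against 20.7% and 23.5% of all genes. Library D1 was the highest of group D for 41 members and D2 for 0, where they were highest for 30.6% and 39.8% of all genes.

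The largest of these differences was that of Cox10, at 0.58 ± 0.09 (SE, adjusted p = 0.00111), followed by Uqcrq at 0.54 ± 0.15 (SE, adjusted p = 0.0209). Uqcrq, a small subunit of complex III named here after its values were seen, measured 68.5, 61.9 and 75.3 FPKM untreated and 119, 77.1 and 108 with TCA, so that library D2 lay close to group A. Atp5g1 differed by 0.32 ± 0.10 (SE, adjusted p = 0.0279) and Atp5g2 by -0.24 ± 0.07 (SE, adjusted p = 0.0198). The call of Atp5g1 was lost without A1, A2, D1 or D3 and that of Atp5g2 without A3, D2 or D3, while Cycs and Cox10 kept theirs under every alternative that tested them. Only 2 members were called higher without A1, A2, D1 or D3, and no member was called lower without A3, D2 or D3, whereas 4 were called lower without C2, which enters through the shared estimate of the spread.

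Whether TCA acted differently in the presence of Cu/ES was tested as the difference between group C vs. B and group D vs. A. For 28 of the 47 members the effect of TCA was lower with Cu/ES than without, and for 1 (Cox15) it was higher, against 19.8% and 17.7% of all genes tested. The median difference was -0.40 for the members, 0.00 for all genes and -0.13 for the more abundant genes, of which 34.6% were lower and 13.9% higher. In the 4 length classes used above, from short to long, the more abundant genes had medians of -0.34, -0.25, -0.11 and 0.04. The members had medians of -0.44 (n = 23), -0.39 (n = 15), -0.53 (n = 7) and 0.22 (n = 2). The part of gene length in this difference was not tested. Past an absolute log2 difference of 1 as well, 6 members were lower (Sdhb, Uqcrq, Uqcr11, Cycs, Atp5g1 and Atp5k) and 0 were higher, against 1.73% and 1.75% of all genes. By set, 3 of 4 members of complex II, 7 of 10 of complex III, 5 of 10 subunits of complex IV, 1 of 6 assembly factors (Cox10) and 12 of 17 of the ATP synthase were lower. Uqcrq and Atp5g1 had the lowest values, -1.50 ± 0.21 (SE, adjusted p = 0.000183) and -1.36 ± 0.14 (SE, adjusted p = 2.14e-05), and Cycs had the smallest adjusted p, with -1.31 ± 0.12 (SE, adjusted p = 1.15e-05). These 3 genes were called higher with TCA alone and called lower when TCA was added to Cu/ES. Without library C2, 35 members were lower, and the range over libraries left out was 24 to 35.

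**Figure D5:**
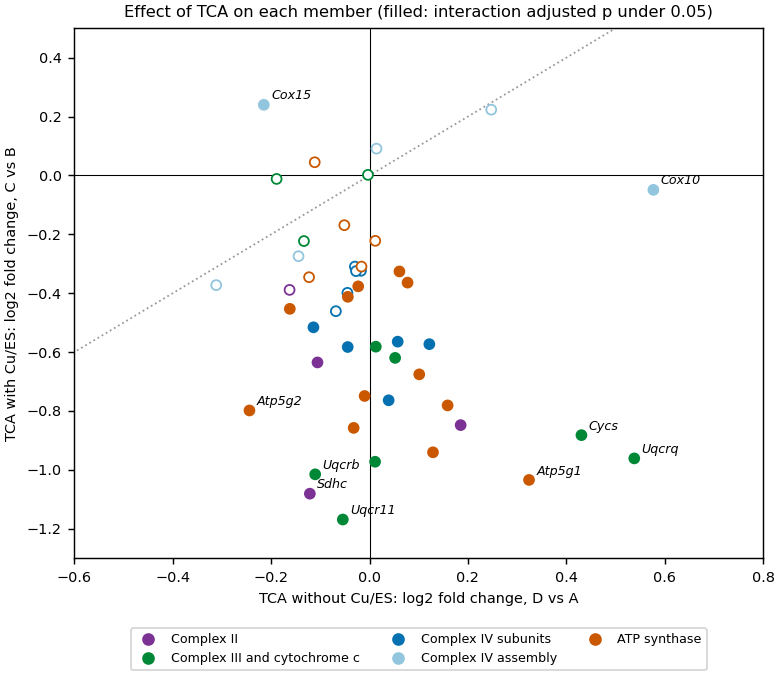
Effect of TCA on each of the 47 members without Cu/ES (horizontal axis, log2 fold change of group D vs. A) and with Cu/ES (vertical axis, group C vs. B), which share no library. Filled points passed the interaction test (29 of 47, adjusted p under 0.05, limma) and the dotted line marks equal effects. Most points lie near 0 on the horizontal axis and below 0 on the vertical one.

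Of 46 other nuclear genes of these complexes (assembly factors, tissue isoforms and small accessory proteins), 39 were in the table and 34 were tested. Under Cu/ES 4 of the 34 were higher and 23 were lower, with a median of -0.99. Of all genes tested, 20.1% were higher and 72% were lower, with a median of -1.10. Under median-ratio scaling the 34 genes gave 16 higher and 16 lower, with a median of 0.20. With TCA added to Cu/ES 3 of them were higher and 9 were lower, with a median of -0.07. Here 20.4% of all genes were higher and 23.6% were lower, with a median of -0.03. All 4 assembly factors of complex II (Sdhaf1 to Sdhaf4), all 5 tested for complex III and all 5 for the ATP synthase fell under Cu/ES, with medians of -2.18, -1.06 and -1.72, or -1.24, 0.13 and -0.57 under median-ratio scaling. Coa3, which helps the synthesis of COX1, went from a mean of 60.5 FPKM in group A to 4.95 in group B, with 4.32 in group C and 60.7 in group D. Not all followed. Surf1, which acts early in the assembly of complex IV, measured a mean of 23.7 FPKM in group A and 25 in group B, and was higher in group C at 39.9, with a log2 fold change of 0.66 ± 0.08 (SE, adjusted p = 3.32e-05) against group B. Lrpprc, which stabilises mitochondrial messenger RNA, rose from a mean of 22.4 to 45.2 FPKM in group B. Cox6b2, an isoform known from testis, was at 0 in all libraries of groups A and D and had means of 3.43 in group B and 7.63 in group C.

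The mitochondrially encoded partners of the same complexes took another course. All 6 (CYTB, COX1, COX2, COX3, ATP6 and ATP8) were higher in group B than in group A, with a median of 1.09. Of all genes tested, 20.1% were higher and 72% were lower. With TPM 5 of the 6 were higher, with a median of 0.73. After quantile normalization 4 were higher and 1 lower, with a median of 1.51. In group C 4 (2 after quantile normalization) were higher than in group B while none was lower, with a median of 0.32. Here 20.4% of all genes were higher and 23.6% were lower. COX1, the catalytic subunit of complex IV, went from a mean of 6855 FPKM in group A to 10400 in group B and 12770 in group C. After quantile normalization COX1 stood at 0.00 in every comparison, so its outcome under that scaling is uninformative. The difference between these genes and the nuclear members was not tested, and polyadenylated libraries capture mitochondrial transcripts unevenly.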

How the data were processed

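Per the labels, polyadenylated RNA was sequenced on an Illumina NovaSeq after the VAHTS Universal V6 kit, and the submitters' processing notes name fastp, HISAT2, HTSeq and the build GRCm39. The authors deposited FPKM values per gene and library, with replicates kept apart. FPKM spacing gave back reads within 0.02 of whole numbers for 22210 of 22212 genes above 0 in at least 2 libraries.

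Here log2(FPKM + 1) of the 10615 genes averaging 1 FPKM or more was fitted with limma 3.58.1 (R 4.3.3, 4 groups, empirical Bayes with trend, 8 residual degrees of freedom, two-sided, Benjamini-Hochberg). Exact permutation of 3 libraries against 3 cannot go below p = 0.1 and was not used. On simulated data for group B vs. A, 100% of 200 changed genes of 10615 were recovered with 9 false calls. Each of these was changed by a log2 fold change of at least 1 in size, and all genes shared a fixed spread. All other genes were left unchanged, whereas most genes differed between the real groups. The simulation therefore cannot show how reliable the calls are under such a shift or for smaller changes.

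The members and lists were chosen with earlier results of these data known. Values in every library are given for the 4 genes of complex II, the 3 genes of subunit c, the members of each set with the highest and lowest change for group B vs. A and C vs. B, and the 2 with the smallest adjusted p for D vs. A and for the interaction. Libraries of groups A and B with the same number deviated together from their group means (r of 0.142 to 0.174 in 3 pairs, against -0.131 to 0.0044 in the other 6), so the numbers were taken to pair these groups, from the data and not from a label. Alternatives were another pseudocount and filter, TPM, median-ratio and quantile scaling, limma-voom on recovered reads, a replicate block, a fit without trend, separate fits of the compared groups and leaving out single libraries. In GENCODE vM21 (GRCm38), 12 members share exon bases with another gene, 10 of them with a gene of the table, and 5 have pseudogenes named for them. Whether counting used strand is not given in the sources used here. Tables and plots came from Python 3.11.15 (numpy 2.4.6, pandas 2.3.3, matplotlib 3.10.9, scipy 1.17.1).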

Additional observations from a re-analysis of the deposited data

Results flagged for a closer look

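The effect of TCA differed between cells with and without Cu/ES (limma interaction, Benjamini-Hochberg) for 28 members in the lower direction and 1 in the higher. Among those described above, complex II and III contributed Sdhb (log2 difference -1.03), Sdha (-0.53), Sdhc (-0.96), Cycs (-1.31), Uqcrq (-1.50) and Uqcr11 (-1.11). Complex IV and its assembly factors contributed Cox7a2 (-0.80), Cox10 (-0.63) and, as the only member higher, Cox15 (0.45). From the ATP synthase came Atp5c1 (-0.29), Atp5g1 (-1.36), Atp5g2 (-0.55) and Atp5g3 (-0.94). The value of Atp5c1 lost its call without A1, A2, B1, B3, C1, C3 or D1, with values between -0.36 and -0.24 over all libraries left out. It was also lost with TPM, with median-ratio scaling, without a filter on low values, without a trend in the fit and after quantile normalization, where it was -0.08 (adjusted p = 0.512). Members not listed here made up the rest of the 28.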

How the results depend on the processing

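For group B vs. A, the count of members higher was 10 with TPM, 33 with median-ratio scaling and 9 with quantile normalization, and the count lower was 10 with median-ratio scaling. Over libraries left out these counts ran from 14 to 16 and from 23 to 26. Median-ratio scaling turned the median of all members to 1.08 and that of complex III to 0.68, and turned Sdhb (0.63), Uqcrfs1 (0.10), Uqcr11 (0.50), Cox7c (0.87), Atp5pb (0.70), Atp5g2 (0.97) and Atp5g3 (0.87). Cox7a2 stood at -0.033 with TPM and Cox10 at 0.0045 with quantile normalization. For group C vs. B, the count higher was 0 at a mean FPKM of at least 5 and 2 with median-ratio scaling, and ran from 0 to 1 over libraries left out, with 32 to 38 lower. For group D vs. A, the count higher was 2 without a filter (2 to 5 over libraries left out), and the count lower was 0 with median-ratio scaling, 7 with quantile normalization, 2 with limma-voom, 3 with only the groups compared and 2 without a trend (0 to 4). For the interaction, the count higher was 0 at a mean FPKM of at least 5, 2 with TPM and 3 with quantile normalization (1 with any library left out), and 24 to 35 members were lower. Shares of all genes called under these other settings are not given here. Median-ratio scaling divides each library by a single factor, which levels the median ratio between libraries. Quantile normalization sets the libraries' whole distributions level by construction. The cause of the other shifts was not tested. For group C vs. B and D vs. A the numbers were not taken to pair the libraries, since a same-number pair fell under 0.1 in each (r of 0.00502 to 0.277 and 0.0872 to 0.579), and 4 and 3 of the 6 libraries correlated best with their own number. With a replicate block in the fit, 16 members were higher and 25 lower for group B vs. A, 1 and 37 with TCA added to Cu/ES, 4 and 1 with TCA alone, and 1 and 28 for the interaction, and none of the 80 results for named members changed its call.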

Other observations

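Ratios of FPKM within a library do not change when all its values are multiplied by a factor, as in TPM or median-ratio scaling, but quantile normalization changes them. The ratios below were chosen after the values were seen and carry no test. The summed level of the complex IV subunits over that of complex II was 5.10 ± 0.103 without treatment, 19.2 ± 0.445 with Cu/ES, 23.8 ± 2.04 with Cu/ES and TCA and 5.22 ± 0.325 with TCA alone (mean ± SD, n = 3), and the groups with Cu/ES did not overlap those without. Cycs over Cyc1 was 0.182 ± 0.0235, 1.55 ± 0.0677, 1.67 ± 0.043 and 0.246 ± 0.00461 in the same order. Uqcrc2 over Uqcrc1, the pair of core subunits of complex III, was 0.898 ± 0.0782, 0.195 ± 0.0313, 0.247 ± 0.0298 and 0.81 ± 0.0511 in groups A to D. Within the F1 head of the ATP synthase, Atp5a1 over Atp5b was 0.42 ± 0.00909 untreated and 0.219 ± 0.0103 with Cu/ES, then 0.213 ± 0.00979 with Cu/ES and TCA and 0.414 ± 0.014 with TCA alone. Atp5c1 over Atp5b was 0.168 ± 0.00227, 0.056 ± 0.00157, 0.0525 ± 0.00299 and 0.152 ± 0.00761. In the intact enzyme alpha and beta subunits are present in equal number. None of these ratios overlapped between groups A and B. Taken as the difference of the fitted log2 fold changes for group B vs. A, Atp5a1 against Atp5b was -0.93 and Atp5c1 against Atp5b was -1.55, but -0.55 and -0.72 after quantile normalization.

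Of 9 listed regulators of these genes, 7 were tested. In group B vs. A, 72% of all genes tested were lower and 20.1% were higher, with a median of -1.10. The median of the 7 regulators was -0.97 in that comparison. Of these regulators 5 were lower, among them Esrra at -2.24, Tfam at -1.46, Nrf1 at -1.18 and Pprc1 at -0.97 on the log2 scale. Gabpa was higher at 0.78. The counts of regulators depended on the scaling, with 3 higher and 3 lower under median-ratio scaling and 4 higher and 1 lower after quantile normalization. Esrra and Gabpa kept their directions past the test with TPM, median-ratio and quantile scaling. After quantile normalization Tfam (-0.26, adjusted p = 0.0528, limma) and Nrf1 (0.18, adjusted p = 0.062) lost their calls and Pprc1 was called higher (0.41, adjusted p = 0.00276). Gabpb1, the other regulator called lower (-0.44), was called higher under median-ratio scaling (0.36) and after quantile normalization (0.86). Ppargc1a and Ppargc1b did not reach a mean of 1 FPKM. In group C vs. B, Pprc1 (-0.44) and Gabpb1 (-0.33) were lower and Yy1 was higher (0.36), where 23.6% of all genes were lower and 20.4% higher. Pprc1, a coactivator related to PGC-1alpha, was the only regulator with a changed level in group D vs. A, at 0.58, and its interaction value was -1.02 (adjusted p = 0.000441, limma with Benjamini-Hochberg adjustment). Gabpa shares a stretch of 123 exon bases, the longest between them, with the member Atp5j on the opposite strand.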
